A study of Mus musculus with 12 samples.

Results

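The genotype effect that embryonic day 9.0 (E9.0) and E9.5 had in common was measured across all genes, in mouse embryos with an altered Eftud2 gene. All 12 libraries of the series entered, 6 homozygous against 6 heterozygous, with stage held as a factor. A gene was counted as shared when its averaged log2 fold change passed an adjusted p of 0.05 and its direction was the same at E9.0 and at E9.5. Of 24421 genes in the count table, 14810 passed the filter on low counts and were tested, and 433 of these were shared. At both stages the controls were Eftud2+/- and the mutants Eftud2-/-, on a C57Bl/6 background with no treatment stated, and each of the 4 groups held 3 libraries. Every control therefore carried 1 altered allele, and wild-type embryos were not analysed here. The alteration is described as specific to neural crest cells, but the driver of the deletion, the somite numbers and the embryos per library are not stated. The labels name the material in 3 ways, as neural crest cells, as cranial nerve ganglia and as heads, and whether the libraries of a group are separate embryos or repeats is not given, so p-values measure the spread between these libraries.

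EFTUD2 is the GTPase of the U5 small nuclear ribonucleoprotein (snRNP), which joins the U4/U6 snRNP in the tri-snRNP and helps to activate the spliceosome. In humans, changes in EFTUD2 cause mandibulofacial dysostosis with microcephaly, in which bones and cartilage made by cranial neural crest cells are affected together with the head and brain. The transcription factor p53 responds to many stresses, switches on genes of cell cycle arrest, repair and cell death, and is held in check by the ubiquitin ligase MDM2. The title of the series names mis-spliced Mdm2 and p53 activity. Counts per gene do not show splicing, which was not analysed here.

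The libraries held 13914543 to 31172708 counts and at least 17311 detected genes each. Heterozygous E9.0 replicate 1 stood apart, because 37.4% of its counts (95% Wilson interval 37.36% to 37.40%, counting error only) fell on Rn45s, the ribosomal RNA precursor, against 4.40% to 16.2% in the other 11. Its scaling factor was 0.664, against 0.924 to 1.11 elsewhere. Libraries also differed in Xist and Y-linked transcripts within each genotype. Homozygous E9.0 replicate 3 lay apart from its group on principal component 2, an axis of differences between libraries (−30.0 against −7.74 and −7.78). Markers of migrating neural crest were present in every library, at a summed 687 to 1218 CPM. So were markers of neural tube, cranial ganglia, endothelium, heart muscle and red cells, so the libraries held many cell types. In such bulk samples fewer cells of a type and less RNA per cell cannot be told apart.

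Homozygous libraries differed from heterozygous ones in a modest set of genes, and more of these were higher than lower. Of the 14810 tested genes, 439 (2.96%) passed the averaged test, 270 (1.82%) higher and 169 (1.14%) lower. Of these, 433 (2.92%) kept 1 direction at both stages, 267 (1.80%) higher and 166 (1.12%) lower. Over all tested genes, 57.3% had the same direction at both stages, and 16.9% reached an unadjusted p under 0.05 in the averaged test. The median averaged log2 fold change was 0.43 for shared rises and −0.40 for shared falls, and 56 shared genes moved more than 2-fold, 36 up and 20 down.

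Taken separately, E9.0 gave 87 calls (0.587%) and E9.5 gave 280 (1.89%), and 25 genes (0.169%) were called at each stage in the same direction. Of the 433 shared genes, 57 were called at E9.0 only, 168 at E9.5 only and 183 at neither stage alone. The genotypes did not overlap at either stage for 289 of the shared genes (66.7%), against 3.57% of all tested genes, and for 109 of them all 6 homozygous libraries lay on 1 side of all 6 heterozygous ones, against 0.993%. Both figures come from the libraries that made the calls and describe them. Leaving out 1 library left between 245 and 404 shared genes. The count fell by more than 1.5 times without heterozygous E9.0 replicate 2 (247) or replicate 3 (285), without homozygous E9.0 replicate 3 (282) and without replicate 2 of the homozygous E9.5 group (245). It was 404 when the library with most Rn45s was left out, and 190 of the 433 genes kept their call whichever library was left out. With total counts as the only scaling, 84.8% of the calls were rises instead of 61.5%, the median of all genes moved by 0.19 (log2) at E9.0, and changes are given here relative to that median.

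**Figure D1:**
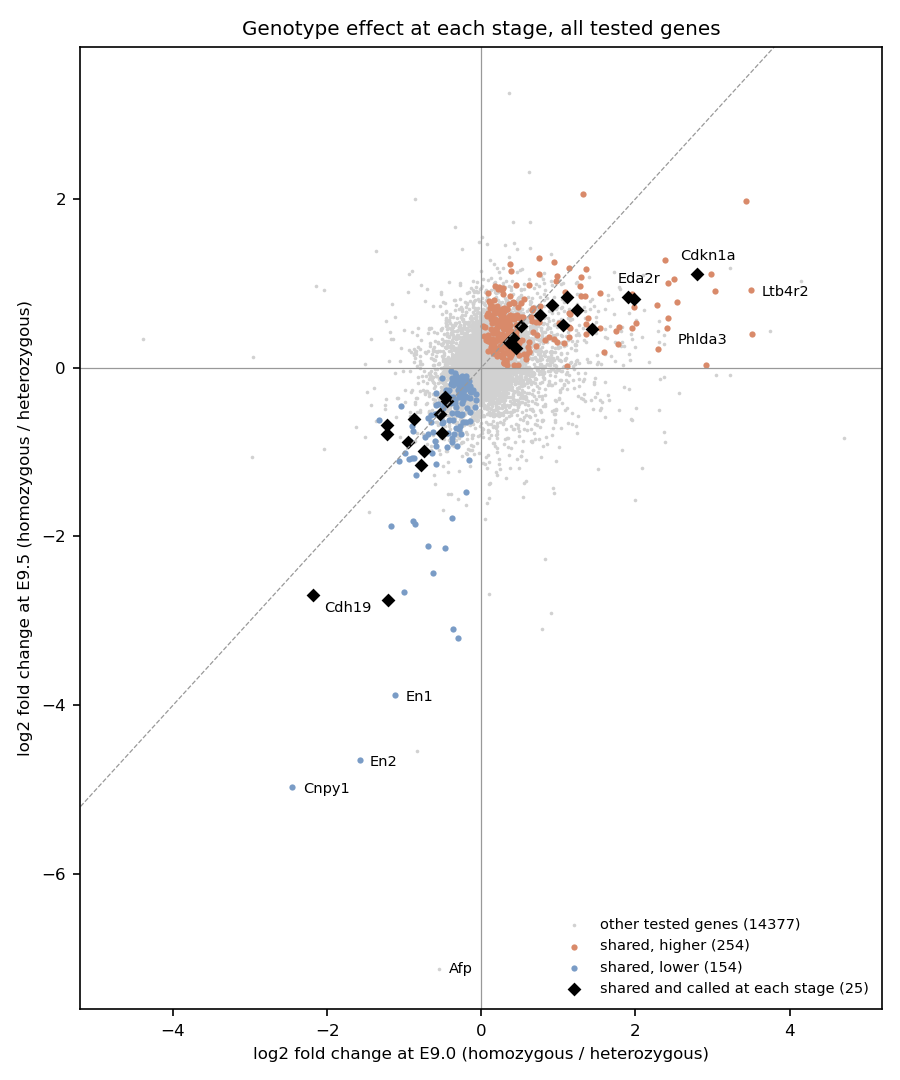
Log2 fold change of homozygous over heterozygous libraries at E9.0 (x axis) and E9.5 (y axis) for each tested gene, with shared rises and falls in colour, the 25 genes called at each stage as diamonds and a dashed line of equal change. Most shared rises with a large change, such as Cdkn1a and Ltb4r2, lie below the line, with the larger change at E9.0, and En1, En2 and Cnpy1 lie far down, with the larger fall at E9.5.

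Eftud2 itself fell in the averaged test, and among other splicing genes some rose and Srpk1 fell. Eftud2 lies on the minus strand at chr11:102838473-102880985 (mm10). At E9.0 heterozygous libraries had 302, 275 and 279 CPM and homozygous libraries 236, 235 and 232 CPM, and at E9.5 the values were 248, 255 and 264 against 226, 221 and 226 CPM. All 6 homozygous libraries were below all 6 heterozygous ones. By edgeR the change was called at E9.0 (−0.29, adjusted p = 0.0193) but not at E9.5 (−0.19, adjusted p = 0.0906). The averaged log2 fold change was −0.24 ± 0.04 (SE; edgeR adjusted p = 0.00214), and an exact permutation within stages gave p = 0.005, the smallest it can give. The call held in all 12 fits that left out 1 library. With total counts as the only scaling it was −0.14 (adjusted p = 0.619), while the median of all genes moved to 0.09.

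Among 16 tested U5 and tri-snRNP proteins, 3 rose and Eftud2 was the only one that fell, with a list median of 0.03. Split by stage, this median was 0.13 for the earlier stage but −0.03 for the later, and 7 of the 16 kept 1 direction. The averaged median therefore does not stand for a shift of the list shared by both stages. Prpf3, a U4/U6 protein, was at 75.2, 71.6 and 75.3 CPM in heterozygous and 110, 105 and 111 CPM in homozygous E9.0 libraries, and at 68.8, 68.5 and 64.4 against 74.9, 76.5 and 75.3 CPM at E9.5. Its averaged change was 0.36 ± 0.04 (edgeR adjusted p = 3.8e-05), with no overlap at either stage. Snrnp200, the helicase that unwinds U4 from U6, changed by 0.28 ± 0.05 (edgeR adjusted p = 0.00289) and Sart1, a tri-snRNP protein, by 0.21 ± 0.04 (edgeR adjusted p = 0.0122). The Snrnp200 groups overlapped at E9.5. At that stage alone Prpf3, Snrnp200 and Sart1 were not called (edgeR adjusted p = 0.127, 0.199 and 0.320). Snrnp200 and Sart1 kept their averaged call in all 12 fits with a library left out, and lost it with total counts as the only scaling (adjusted p = 0.0551 and 0.117).

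Smndc1, a survival-motor-neuron-related protein needed for spliceosome assembly, was the splicing gene called at each stage. Its levels were 61.4, 59.7 and 59.8 CPM in heterozygous and 81.5, 83.5 and 82.7 CPM in homozygous libraries at E9.0, and 54.4, 53.2 and 52.6 against 60.8, 63.5 and 63.5 CPM at E9.5. The changes were 0.45 at E9.0 and 0.23 at E9.5 (edgeR adjusted p = 1.8e-04 and 0.0253). By edgeR, 0 of 44 other core spliceosome proteins, 0 of 30 SR proteins and splicing regulators and 0 of 27 genes of nonsense-mediated decay and snoRNA hosts passed the averaged test. Their medians were 0.04, 0.01 and 0.00, unadjusted p-values under 0.05 numbered 3, 4 and 2, DESeq2 called 1, 0 and 0 of them and limma-voom 0. Split by stage, the medians were 0.09, −0.01 and 0.05 for the earlier stage but −0.002, −0.02 and −0.05 for the later. The same direction at both stages was kept by 22 of the 44, 18 of the 30 and 11 of the 27. Outside these lists Srpk1, a kinase of SR proteins named after its value was seen, changed by −0.15 ± 0.04 (edgeR adjusted p = 0.0453) with no overlap within a stage, and kept its call in 1 of the 12 fits with a library left out (adjusted p up to 0.120).

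**Figure D2:**
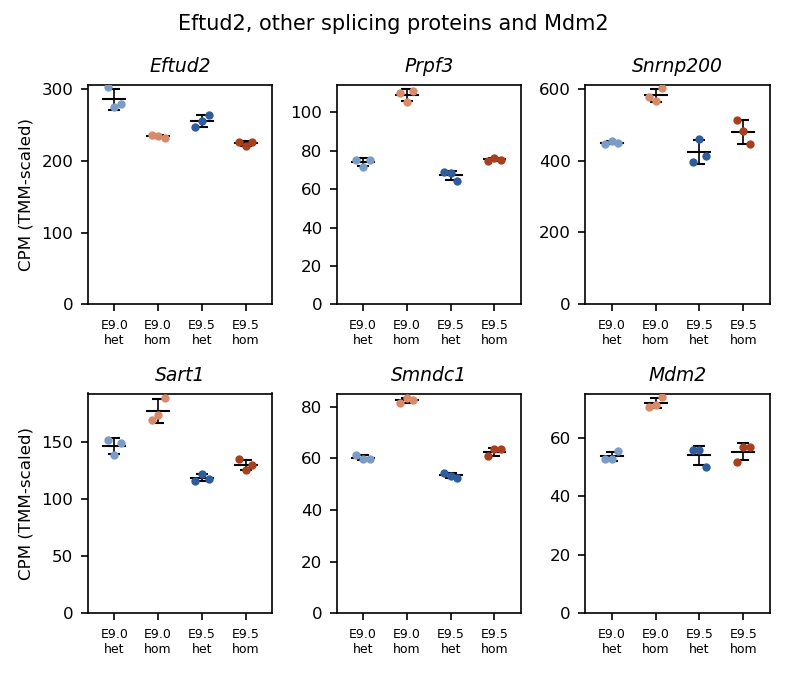
CPM of Eftud2, 4 other splicing proteins and Mdm2 in each library (points) by stage and genotype, with the group mean and SD of 3 libraries. Eftud2 is lower in homozygous groups at both stages, Prpf3 and Smndc1 are higher at both, and the E9.5 groups of Mdm2 overlap.

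Over the 4 lists of p53 genes, 54 were tested, 23 rose and 0 fell (33 and 0 at an unadjusted p under 0.05, 24 and 0 by DESeq2), and the median averaged log2 fold change was 0.23, against 0.00 over all tested genes. They made up 8.61% of the shared rises, and 7 of them were called at each stage. In all 23 the change was larger at E9.0 than at E9.5, while the difference between stages itself passed the test for 3 of them. The count was 22 without heterozygous E9.0 replicate 1 and 21 to 24 over the 12 fits that left out a library. These lists were written with earlier results of the same libraries known, so the counts are not independent evidence.

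Of 17 tested genes of growth arrest and stress, 11 rose. Cdkn1a, the inhibitor of cyclin-dependent kinases, was at 2.35, 2.84 and 3.57 CPM in heterozygous and 18.8, 12.9 and 30.9 CPM in homozygous E9.0 libraries, and at 5.34, 6.16 and 6.00 against 13.2, 12.1 and 12.4 CPM at E9.5. All 6 homozygous libraries were above all 6 heterozygous ones, with the widest spread in homozygous E9.0 libraries, and the averaged change was 1.95 ± 0.19 (edgeR adjusted p = 1.5e-04). Homozygous E9.0 replicate 3, which lay apart from its group, was the highest of that group in Cdkn1a, Phlda3 and Sesn2. Phlda3, which restrains Akt at the membrane, rose by 1.44 ± 0.14 on average, with 2.41 at the earlier stage (edgeR adjusted p = 8.4e-05) and 0.48 at the later (adjusted p = 0.26). Its stage difference passed the test (adjusted p = 0.0213). Ddit4l, a restraint on mTOR, was called at each stage, with 1.91 and 0.83. Sesn2 (0.81), Trp53inp1 (0.88), Plk2 (0.62), Zmat3 (0.39), Gtse1 (0.41), Ddit4 (0.64), Btg2 (0.34) and the phosphatase gene Ptprv (1.97) made up the rest of the 11, each called in all 12 fits with a library left out.

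Of 14 cell death targets, 6 rose and all 14 values were above 0, with a median of 0.35. They were mainly death receptors and BH3-only genes. Eda2r, a receptor of the tumour necrosis factor family, was at 5.21, 7.51 and 8.73 CPM in heterozygous and 28.7, 27.2 and 30.9 CPM in homozygous E9.0 libraries, and at 10.5, 10.2 and 9.63 against 20.9, 17.7 and 14.7 CPM at E9.5. Its averaged change of 1.40 ± 0.10 (edgeR adjusted p = 3.5e-06) was among the smallest p-values of the shared genes, and it was called at each stage. Tnfrsf10b, the TRAIL receptor, was also called at each stage, with 0.76 and 0.62. Fas, the death receptor, was far lower, at 0, 0.107 and 0.215 CPM in heterozygous and 0.526, 1.15 and 1.35 CPM in homozygous E9.0 libraries, where 0 counts allow up to 0.220 CPM, and at 0.183, 0.293 and 0.284 against 0.674, 0.461 and 0.525 CPM at E9.5. Fas had no overlap between genotypes, and it rose with an adjusted p of 0.00386 (edgeR). Pmaip1 (0.81 ± 0.11) and Bbc3 (0.43 ± 0.09), which encode the BH3-only proteins Noxa and Puma, rose as well. Bbc3 missed the threshold in 1 of the 12 fits with a library left out (adjusted p up to 0.0511).

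Zfp365, a zinc finger gene linked to genome stability, is counted among the 6 rises of the cell death list. It was called at each stage, with 1.11 at E9.0 and 0.84 at E9.5 (edgeR adjusted p = 2.7e-04 and 0.0036). Of 16 repair and metabolism targets 4 rose, among them Slc19a2, a thiamine transporter (1.10 ± 0.10), and the adenylate kinase Ak1 (0.78 ± 0.07, called at each stage). Epha2 rose by 0.43 ± 0.09, and the DNA polymerase Polk by 0.32 ± 0.08 with a call in 3 of the 12 fits with a library left out (adjusted p up to 0.132). Of 7 feedback genes 2 rose, Ccng1 and Mdm2. Ccng1, the cyclin G1 gene, was at 27.4, 39.0 and 40.9 CPM in heterozygous and 102, 95.8 and 94.3 CPM in homozygous E9.0 libraries and at 77.9, 80.7 and 70.7 against 111, 105 and 99.5 CPM at E9.5. It was called at each stage, and its changes of 1.43 and 0.46 differed between stages (edgeR adjusted p = 0.0213). Mdm2 rose on average by 0.23 ± 0.04 (edgeR adjusted p = 0.0094), from 0.42 at E9.0 and 0.03 at E9.5 (adjusted p = 0.90), and its E9.5 groups overlapped. Without heterozygous E9.5 replicate 3 the E9.5 value of Mdm2 was −0.01, so it no longer counted as shared and 1 of the 7 feedback genes did, while its averaged call held in all 12 fits with a library left out. The averaged call of Mdm2 was lost with total counts as the only scaling (0.32, adjusted p = 0.101) and in an additive model of stage and genotype (adjusted p = 0.0794). Trp53 itself was at 0.06 ± 0.06 (adjusted p = 0.69).

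**Figure D3:**
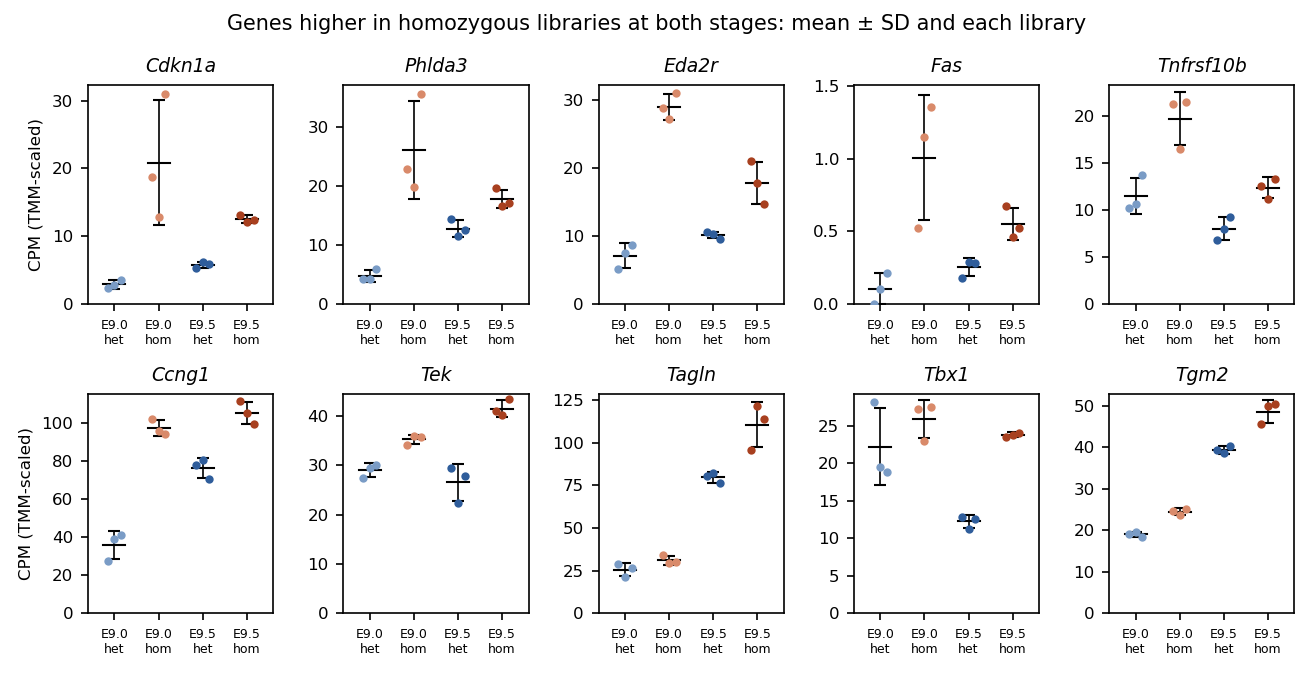
CPM of 10 shared rises in each library (points) by stage and genotype, with the group mean and SD of 3 libraries. The p53 targets Cdkn1a, Phlda3, Eda2r and Ccng1 separate the genotypes most widely at E9.0, whereas Tek, Tagln and Tbx1 do so at E9.5, and the E9.0 groups of Tbx1 overlap.

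To show the sequences in front of these genes, the p53 consensus, 2 decamers with no spacer, was searched by name in RefSeq promoter windows (GRCm38.p6, 250 bases before to 50 after each start). The C and G of each core were required and up to 2 mismatches allowed, and the consensus reads the same on both strands. It was found in 45 of 11036 tested genes with a window (0.408%), among them 4 shared rises and 0 shared falls. Windows existed for 71.9% of the shared rises and 72.9% of the shared falls, under 80%, so the comparison of these shares is void. The match in Gtse1 begins 1 base before the start and is not printed. Those of Cdkn1a, Ccng1 and Zfp365, which were all called at each stage, are printed 5′ to 3′ on the strand of the gene, with the matched 20 bases in capitals.
Cdkn1a: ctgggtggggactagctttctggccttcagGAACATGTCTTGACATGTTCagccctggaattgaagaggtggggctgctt
Ccng1: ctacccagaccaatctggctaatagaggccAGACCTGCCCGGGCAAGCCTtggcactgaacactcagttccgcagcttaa
Zfp365: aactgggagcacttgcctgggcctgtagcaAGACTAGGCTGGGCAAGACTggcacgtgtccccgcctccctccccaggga
The stretches lie at chr17:29090898-29090977 (plus strand), chr11:40755432-40755511 (minus) and chr10:67912676-67912755 (minus). The matches begin 51, 195 and 63 bases before the start of their window and hold 1, 1 and 2 mismatches. Here the start is the RefSeq start that the window was built on. Cdkn1a had 2 windows, and the one with the best match is printed, so its distance is from 1 of its 2 starts. A match is a description of these letters, and binding was not measured here.

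Genes of the midbrain and of the isthmus, the organizer between midbrain and hindbrain, held the largest shared falls. In a list of 22 such genes, written after results had been seen, 12 fell and 0 rose (16 and 0 at an unadjusted p under 0.05, 13 and 0 by DESeq2), with a median of −0.47. By edgeR 0 of the 22 were called at E9.0 alone and 12 at E9.5, against 0.587% and 1.89% of all tested genes. The members were picked with their values in view, so these counts are not independent evidence. At an unadjusted p under 0.05, 7 were lower and 0 higher at E9.0, where the share of all tested genes at that threshold is not given here. The count of falls was 10 to 13 over the 12 fits with a library left out. The summed level of the 22 genes was 456 to 516 CPM in heterozygous and 379 to 437 CPM in homozygous E9.0 libraries, and 374 to 533 against 247 to 292 CPM at E9.5.

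En1 and En2 encode the engrailed homeodomain proteins that maintain the region. En2 was at 25.5, 22.4 and 35.3 CPM in heterozygous and 7.89, 12.5 and 7.23 CPM in homozygous E9.0 libraries, and at 24.3, 49.7 and 30.6 against 1.05, 1.81 and 1.27 CPM at E9.5. All 6 homozygous libraries were below all 6 heterozygous ones, with an averaged change of −3.11 ± 0.26 (edgeR adjusted p = 3.0e-04). The E9.5 change of −4.64 passed the test and the E9.0 change of −1.58 did not (adjusted p = 0.091), and the difference between the stages did not pass either (adjusted p = 0.13). En1 was at 22.7, 16.9 and 22.3 CPM against 6.24, 10.9 and 11.1 CPM at E9.0 and at 5.52, 13.2 and 7.64 against 1.01, 0.553 and 0.188 CPM at E9.5, a change of −2.50 ± 0.31.

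Cnpy1, an FGF pathway gene of the isthmus, was at 0.661, 1.29 and 0.946 CPM against 0.150, 0.172 and 0.203 CPM at E9.0, and at 1.19, 5.17 and 2.52 against 0.0337, 0.0921 and 0.150 CPM at E9.5. All 3 homozygous E9.0 libraries held at most 3 counts of Cnpy1, so its averaged change of −3.71 ± 0.51 rests on few reads. The homeobox gene Dmbx1 (−1.36 ± 0.16) and Tal2 (−1.30 ± 0.20), a factor of midbrain GABAergic neurons, fell with no overlap at either stage, as did Wnt1 (−0.76 ± 0.12) and Fgf18 (−0.90 ± 0.15), signals of the isthmic region. Pax5 (−1.53 ± 0.29) kept its call in 11 and Lhx9 (−1.52 ± 0.36) in 5 of the 12 fits with a library left out (adjusted p up to 0.0546 and 0.110). Heterozygous E9.5 replicate 2 had the highest level of En2, En1, Cnpy1, Pax5, Dmbx1 and Tal2 in its group.

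**Figure D4:**
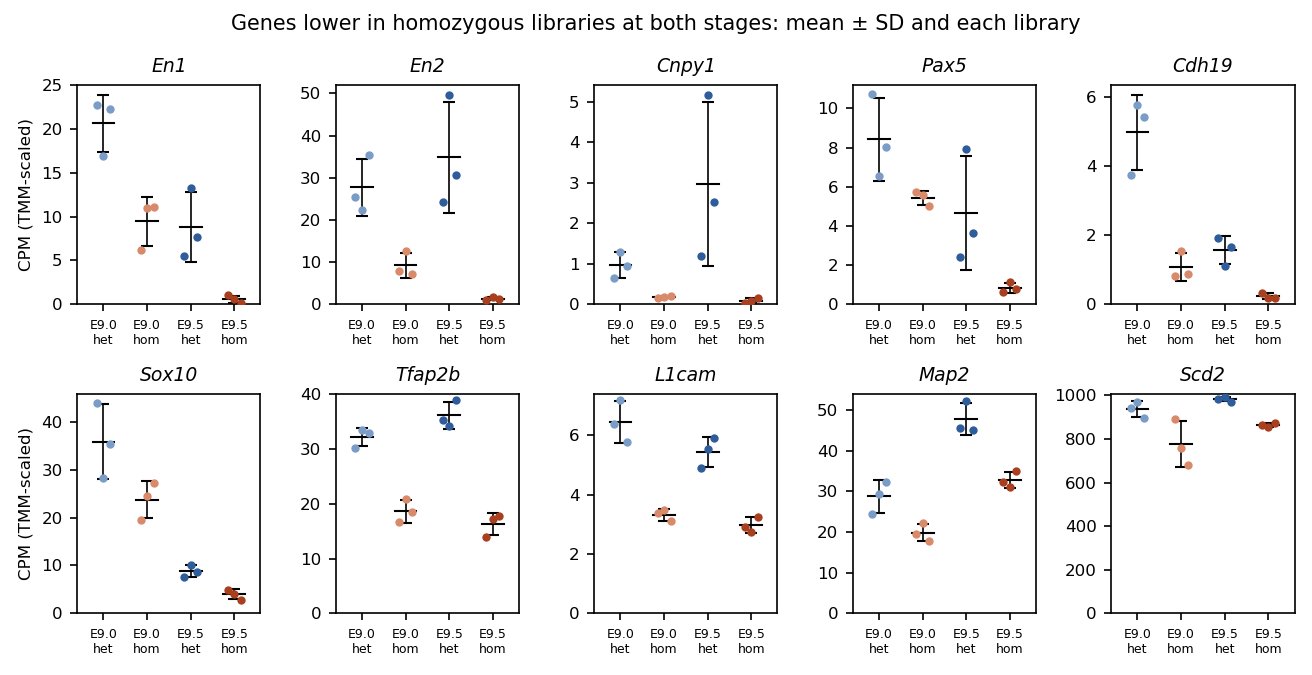
CPM of 10 shared falls in each library (points) by stage and genotype, with the group mean and SD of 3 libraries. En1, En2 and Cnpy1 are near the bottom of the axis in the homozygous E9.5 group, and Tfap2b and L1cam are lower in every homozygous library than in every heterozygous one.

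Neural crest genes fell together in part. Of 21 tested markers of migrating crest, 6 fell and 0 rose (13 and 0 at an unadjusted p under 0.05, 8 and 0 by DESeq2), 18 values were below 0 and the median was −0.24, and 6 to 9 fell over the 12 fits with a library left out. By edgeR 2 of the 21 were called at E9.0 alone and 8 at E9.5, against 0.587% and 1.89% of all tested genes. The summed level of the list was 1116 to 1218 CPM in heterozygous and 1061 to 1127 CPM in homozygous E9.0 libraries, and 869 to 940 against 687 to 819 CPM at E9.5. Tfap2b, a crest transcription factor, was at 30.2, 33.5 and 32.9 CPM against 16.7, 20.9 and 18.4 CPM at E9.0, and at 35.3, 34.3 and 38.9 against 14.0, 17.2 and 17.7 CPM at E9.5. It was called at each stage with no overlap over all 12 libraries, and its averaged change was −0.97 ± 0.07 (edgeR adjusted p = 3.5e-06).

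Cdh19, a cadherin of crest-derived glial precursors, was also called at each stage. It was at 3.74, 5.79 and 5.42 CPM against 0.827, 1.55 and 0.878 CPM at E9.0 and at 1.92, 1.12 and 1.67 against 0.337, 0.184 and 0.188 CPM at E9.5, a change of −2.44 ± 0.23 (edgeR adjusted p = 2.0e-05). Sox10, which specifies crest glia and pigment cells, changed by −0.87 ± 0.14 (edgeR adjusted p = 0.00423), with no overlap at either stage. Pax3 (−0.42 ± 0.08) and Pax7 (−0.61 ± 0.12) were also among the falls. At E9.0 alone Sox10, Pax3 and Pax7 were not called (−0.59, −0.19 and −0.38, edgeR adjusted p = 0.195, 0.465 and 0.378). The Pax7 groups overlapped at that stage. Pax3 and Pax7 are also made in the dorsal neural tube. Foxd3, an early crest factor, passed the averaged test but is not shared, because its E9.0 change was 0.05, but −1.80 at E9.5. Sox10 and Cdh19 also changed between stages in heterozygous libraries, by −2.01 and −1.68, in a comparison that shares these heterozygous libraries.

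In the mesenchyme of the pharyngeal arches and face, 4 of 31 tested genes fell and 1 rose, with a median of −0.17. At an unadjusted p under 0.05, 14 were lower and 3 higher, with 8 and 1 by DESeq2 and 6 and 0 by limma-voom. Over the 12 fits with a library left out 3 to 5 fell and 0 to 1 rose. At E9.0 alone edgeR called 0 of the 31 and at E9.5 it called 7, against 0.587% and 1.89% of all tested genes. The list medians were −0.03 at E9.0 and −0.14 at E9.5. The averaged test, whatever the direction at each stage, called 6 lower, and 3 with total counts as the only scaling. Dlx1 and Dlx2, homeobox genes of the jaw arch, changed by −1.73 ± 0.16 and −1.08 ± 0.14, mostly through E9.5. Dlx1 was at 3.08, 3.33 and 2.32 CPM against 2.48, 2.0 and 2.23 CPM at E9.0, where the groups overlapped, and at 9.18, 6.25 and 8.28 against 1.15, 0.921 and 0.675 CPM at E9.5, and its stage difference passed the test (edgeR adjusted p = 0.00349). Reads of Dlx1 may include those of its antisense partner Dlx1as, since the strand setting is not given. Alx1, a frontonasal gene, changed evenly, by −0.90 and −1.07, and kept its call in all 12 fits with a library left out. Dlx6 fell and Edn1, the endothelin ligand that patterns the jaw, rose, but they kept their calls in 3 and 2 of those fits (adjusted p up to 0.124 and 0.117).

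Neuronal genes were divided. In the list of 25 ganglion and early neuron genes, 3 rose, 4 fell and the median was −0.04. Over the 12 fits with a library left out 2 to 4 rose and 2 to 5 fell, and with total counts as the only scaling 2 rose and 2 fell. Isl1 (0.35 ± 0.07) and Ebf1 (0.39 ± 0.08), transcription factors of ganglia and arch tissue, were among the rises. Tubb3 (−0.49 ± 0.06), Ina (−0.57 ± 0.11), Elavl4 (−0.42 ± 0.10) and Nhlh1 (−0.97 ± 0.23), which mark differentiating neurons, were the falls, of which Elavl4 and Nhlh1 each kept the call in 5 of the 12 fits with a library left out. In a list of 25 genes of the neuronal cytoskeleton and axon, written after results had been seen, 11 fell and 0 rose (15 and 1 at an unadjusted p under 0.05, 12 and 0 by DESeq2), and the lowest count was 5, without heterozygous E9.0 replicate 3.

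Among these, L1cam, an adhesion molecule of axons, was at 6.39, 7.19 and 5.76 CPM against 3.38, 3.49 and 3.11 CPM at E9.0, and at 4.91, 5.55 and 5.90 against 2.90, 2.73 and 3.26 CPM at E9.5. It was called at each stage with no overlap over all 12 libraries (−0.91 ± 0.10, edgeR adjusted p = 1.0e-04). Map2, the dendritic microtubule protein, was called at each stage with −0.54 at both, one of the most even changes among the shared falls. Of 39 tested genes of neural tube progenitors and patterning 6 fell and 1 rose, with 18 values above and 21 below 0 and a median of −0.05, and 5 to 7 fell over the 12 fits with a library left out. The falls include En1, En2, Pax5 and Wnt1, named above. The POU factor genes Pou3f4 (−0.95 ± 0.15) and Pou3f3 (−0.58 ± 0.11) and Mab21l2, an eye and midbrain gene (−0.87 ± 0.10), also fell, and Pou3f4 and Mab21l2 were called at each stage. Rax, an eye field gene, rose by 0.44 ± 0.11 with a call in 4 of the 12 fits with a library left out (adjusted p up to 0.106).

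Of 20 tested endothelial markers 8 rose and 0 fell (19 and 0 at an unadjusted p under 0.05, 15 and 0 by DESeq2, 7 and 0 by limma-voom), all 20 values were above 0 and the median was 0.42, with 0.20 at E9.0 and 0.63 at E9.5. By edgeR 0 of the 20 were called at E9.0 alone and 12 at E9.5, against 0.587% and 1.89% of all tested genes. At an unadjusted p under 0.05, 3 were higher and 0 lower at E9.0. The share of all tested genes at that threshold and stage is not given here, so no excess is read from it. The summed level was 384 to 414 CPM in heterozygous and 453 to 465 CPM in homozygous E9.0 libraries, and 247 to 356 against 445 to 510 CPM at E9.5, so heterozygous and homozygous sums were separate at each stage. Heterozygous E9.5 replicate 2, which was high in the midbrain genes, was the lowest of its group in all 8 called markers. Without it 9 endothelial markers rose, and 13 of the 22 midbrain and isthmus genes fell. Tek, the angiopoietin receptor, was at 27.4, 29.4 and 30.1 CPM against 34.1, 36.0 and 35.7 CPM at E9.0, and at 29.5, 22.3 and 27.9 against 40.9, 40.1 and 43.5 CPM at E9.5 (0.46 ± 0.06, edgeR adjusted p = 6.2e-04). Kdr, the main receptor of vascular endothelial growth factor, changed by 0.44 ± 0.08 and Tie1 by 0.50 ± 0.09, and both kept their call in all 12 fits with a library left out, unlike Cdh5 (7 fits), Flt1 (8), Egfl7 (7), Eng (3) and Sox7 (11). Without heterozygous E9.0 replicate 3 the count of rises was 3, and without replicate 1 of that group it was 9. With total counts as the only scaling 14 of the 20 were called higher.

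A further list of 20 vascular genes, written after results had been seen, held 15 rises and 0 falls (8 to 15 over the fits with a library left out), among them Rasip1 (0.50 ± 0.08), which is needed to form vessel lumens. Of these 20, edgeR called 0 at E9.0 alone and 15 at E9.5, with medians of 0.23 and 0.60, against calls for 0.587% and 1.89% of all tested genes. Since the members were picked with their values in view, the counts are not independent evidence. At an unadjusted p under 0.05, 7 were higher and 0 lower at E9.0, again without a share of all tested genes to set beside them. Of 22 matrix and adhesion genes 4 rose, the collagens Col4a1 (0.39 ± 0.07), Col4a2 and Col6a1 and the laminin Lamb1 (0.28 ± 0.04), and 2 did without homozygous E9.0 replicate 3 or homozygous E9.5 replicate 2. At E9.0 alone edgeR called 0 of these 22 genes and at E9.5 it called 6, against 0.587% and 1.89% of all tested genes. The list medians were 0.06 at E9.0 and 0.33 at E9.5. Col4a1 and Lamb1 kept their calls in all 12 fits with a library left out, Col4a2 in 7 and Col6a1 in 5 (adjusted p up to 0.0680 and 0.0803). Col4a1 and Col4a2 lie head to head and may share reads. Of 18 contractile and smooth muscle genes, listed after results had been seen, 7 rose and 0 fell (3 to 7 over those fits), such as Tagln (0.38 ± 0.07). Whether the share of endothelial or muscle cells in the libraries differed was not tested.

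Other tissues showed smaller counts. Of 11 tested somite and muscle precursor genes 3 rose, namely Pax9 (0.62 ± 0.13), Tbx1 (0.60 ± 0.09) and Tcf21 (0.55 ± 0.14), which are known from pharyngeal endoderm and mesoderm rather than from muscle itself. The count was 1 without heterozygous E9.0 replicate 2, and Tcf21 kept its call in 2 of the 12 fits with a library left out (adjusted p up to 0.112). Tbx1 overlapped at E9.0 (28.2, 19.6 and 18.9 against 27.3, 23.0 and 27.5 CPM) and did not at E9.5 (12.9, 11.3 and 12.6 against 23.5, 23.9 and 24.1 CPM). Of 14 epithelial genes 3 rose, Krt8, Epcam and Cldn6, and the count ran from 0, without heterozygous E9.0 replicate 2 or homozygous E9.5 replicate 2, to 5. All 14 heart muscle genes had values above 0, with a median of 0.37, but Nkx2-5 alone passed the test (0.54 ± 0.12). It kept its call in 7 of the 12 fits with a library left out (adjusted p up to 0.0760), its E9.0 groups overlapped, and in 5 of those fits edgeR called 0 of the 14, such as without heterozygous E9.0 replicate 2 (1 higher and 0 lower at an unadjusted p under 0.05). The summed level of the 14 varied widely between libraries, from 120 to 533 CPM in heterozygous and 233 to 798 CPM in homozygous E9.0 libraries and 4085 to 6567 against 4789 to 7127 CPM at E9.5. Of 12 red cell genes 0 passed by edgeR, DESeq2 or limma-voom, also at an unadjusted p under 0.05 (median −0.21), with 688 to 1216 against 575 to 1248 CPM in sum at E9.0 and 4097 to 5337 against 2865 to 5258 CPM at E9.5. How these tissues bear on the other results was not tested.

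Lists of general cell functions held few calls. By edgeR, 0 of 20 mitosis genes passed the averaged test, with all 20 values below 0, a median of −0.05 and 1 unadjusted p under 0.05. Of 22 replication genes 1 passed, the polymerase Pole (−0.25 ± 0.06), with a call in 2 of 12 fits with a library left out. By the same test 0 of 29 ribosomal proteins, 0 of 24 genes of ribosome biogenesis and 0 of 20 genes of hypoxia and glycolysis passed, with medians of 0.03, 0.03 and 0.07 and unadjusted p-values under 0.05 for 2, 1 and 2. DESeq2 and limma-voom also called 0 in these lists and in the mitosis list. The median of the ribosomal proteins was 0.14 at E9.0 but −0.08 at E9.5, 3 of 29 had the same direction at both stages, and their sums were 23347 to 24748 against 25375 to 26934 CPM at E9.0 and overlapped at E9.5. Of 18 genes of the ATF4 and amino acid stress response 2 rose, Atf3 and Sesn2, and Sesn2 is also in the p53 lists. Atf3 kept its call in 3 of the 12 fits with a library left out (adjusted p up to 0.113). Of 25 feedback targets of Wnt, FGF, BMP, hedgehog and Notch signalling, Hey2 rose, with a call in all 12 of those fits, and Axin2 fell, with a call in 3 (adjusted p up to 0.0832).

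**Figure D5:**
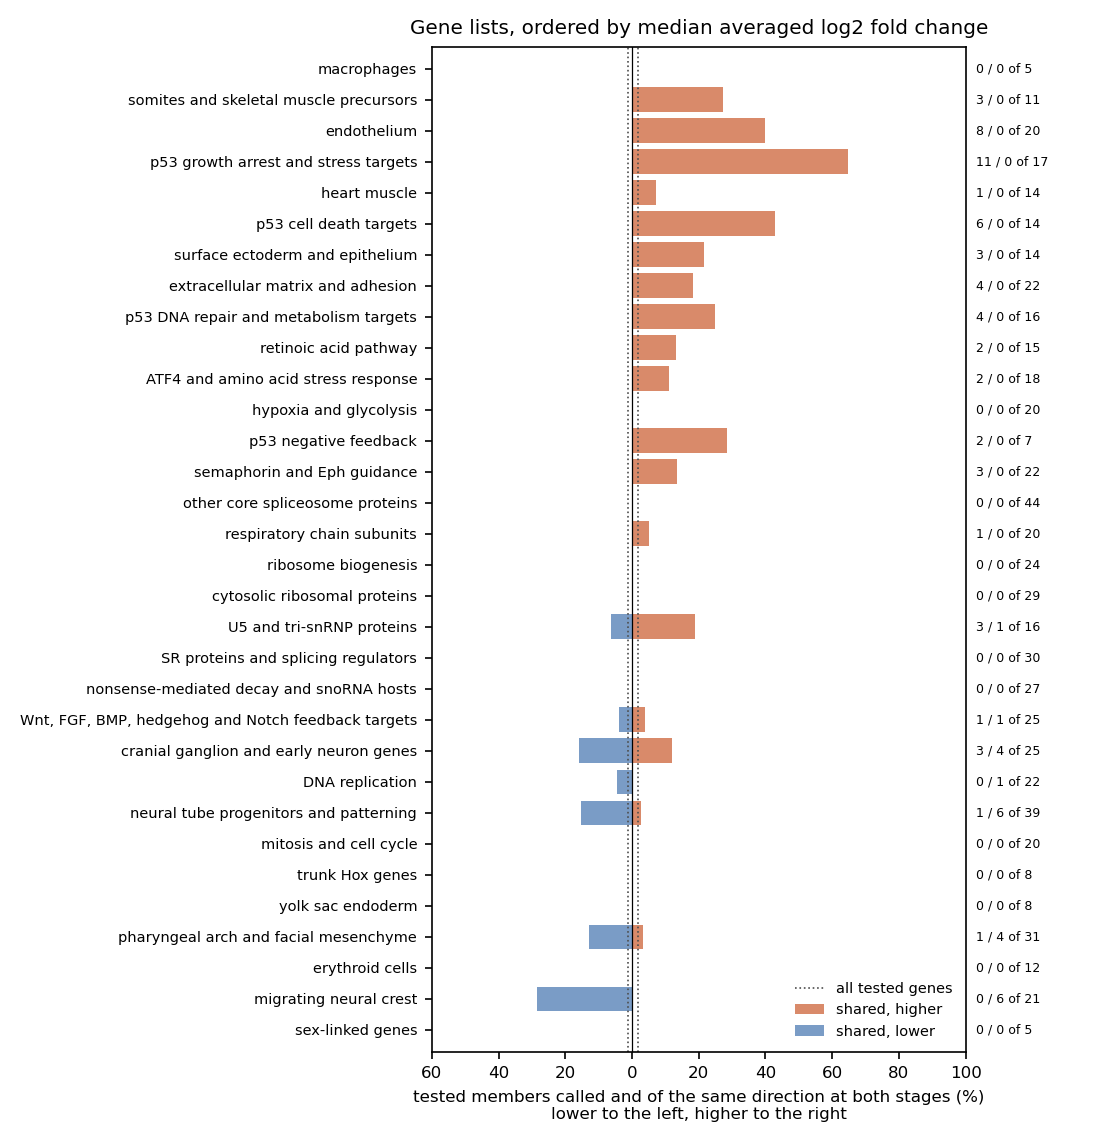
Share of the tested members of each list that were called with the same direction at both stages, higher to the right and lower to the left, in percent, for lists with at least 5 tested members, with the numbers higher, lower and tested at the right. Dotted lines mark the shares over all tested genes (1.80% and 1.12%). The p53 lists of growth arrest and of cell death and the endothelium list reach farthest to the right and migrating neural crest farthest to the left, and the 5 lists written after results had been seen are not drawn.

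Among the largest shared rises were genes outside these lists. Ltb4r2, a leukotriene receptor, had the largest averaged change (2.21 ± 0.36, edgeR adjusted p = 0.00281) at a low level, with 0.220, 0.107 and 0.0860 CPM against 1.35, 0.745 and 2.43 CPM at E9.0 and 0.274, 0.264 and 0.178 against 0.573, 0.399 and 0.413 CPM at E9.5. The heterozygous E9.0 values are at or under the level of 3 counts, so the size of the fold is uncertain. Tap1, the peptide transporter of antigen presentation, changed by 1.66 ± 0.23, Svop by 1.96 ± 0.26, the integrin Itgb2 by 1.83 ± 0.34 and Shpk, a sugar kinase, by 1.51 ± 0.31. Each of these had no overlap at either stage and kept its call in all 12 fits with a library left out. Tap1 and Svop overlap genes on the other strand, Psmb9 and Usp30, whose reads cannot be separated here.

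The 25 genes called at each stage are the narrowest reading of a shared effect, and all 25 kept their averaged call whichever library was left out. The rises beside those named above were Tgm2, Ggta1, Zak, Arap2 and C130046K22Rik. Zak, a kinase of the ribosome stress response, was at 37.7, 37.2 and 35.0 CPM against 54.1, 47.6 and 54.8 CPM at E9.0 and at 47.3, 52.8 and 51.4 against 69.3, 71.4 and 72.1 CPM at E9.5, nearly the same change at both (0.51 and 0.49). Tgm2, a transglutaminase, was at 0.36 and 0.30. The remaining falls included the predicted gene AA465934 (−1.98 ± 0.18), Plcg2 (−0.64 ± 0.08), a phospholipase, Abca5 (−0.74 ± 0.10), Dpysl4 (−0.42 ± 0.06), a growth cone protein, and Dpy19l3 (−0.41 ± 0.06). AA465934 overlaps the snoRNA gene Snord7 on the same strand. It was not in the list with snoRNA hosts, of which 0 passed the averaged test.

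The genes that were called over both stages but at neither alone show what the pooling of stages added. They numbered 183, 96 higher and 87 lower. The largest rises among them were Itgb2, Cmah, Gm3558, Abca6 and Myh11 and the largest falls Flrt1, Nhlh1, Tex16, Ddn and Apcdd1. Flrt1, an axon guidance receptor, was at −0.99 and −1.02 at the 2 stages (−1.0 ± 0.18, edgeR adjusted p = 0.00973), and Apcdd1, a Wnt inhibitor, at −0.53 and −0.80 with a call in 4 of the 12 fits with a library left out (adjusted p up to 0.0919). Among the shared genes with a mean of at least 10 counts and no overlap within a stage, called at a single stage or not, the smallest differences between stages were those of S100a16, Cldn6, Col18a1, Nfkb1 and Ptk7 among rises and Mat2a, Fam69c, Usp3, Kif5c and Map2 among falls. Col18a1 and Fam69c kept their calls in all 12 of those fits, with 0.23 and −0.65 at each stage.

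The size of the shared changes was compared between stages. The change was larger at E9.0 in 190 and at E9.5 in 243 of the shared genes. The median rise at E9.0 was 0.35, that at E9.5 was 0.48, and the median falls were −0.34 and −0.41. A stage difference passed the test for 6 shared genes (10 of all tested genes, 0.0675%), with an unadjusted p under 0.05 for 100 of 267 rises and 28 of 166 falls, against 1274 of 14810 tested genes. Between stages in heterozygous libraries, which enter both comparisons, the median change was 0.03 for shared rises, 0.09 for shared falls and 0.01 for all tested genes.

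Gene structure was described without a test. The median number of exons was 9 for rises, falls and all tested genes, and single-exon genes made up 5.24%, 3.64% and 3.94%. The median transcript was 3723 bases in rises, 4149 in falls and 3398 in all, with a GC content of 52.6%, 50.2% and 49.9%. With offsets for GC content and length, the shared genes numbered 354 higher and 318 lower, and 52.7% of all calls were rises. Genes near Eftud2 on chromosome 11 were counted, since a segment linked to a targeted allele can differ between genotypes. Within 5 Mb on each side 7 of 182 tested genes were shared (3.85%), all rises, and within 10 Mb 10 rose and 3 fell of 289 (4.50%). The nearest were Arhgap27 (0.43 ± 0.09) and C130046K22Rik (0.83 ± 0.11), 0.488 and 0.851 Mb away. Over single chromosomes the share of shared genes ran from 1.79% to 4.67%.

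At the threshold itself, Fam160a1, Tfpi and 2900092D14Rik were just inside the threshold of 0.05 (adjusted p from 0.0497) and Eva1c, Ece1 and Hdac3 just outside (0.0502). Besides Foxd3, 5 genes passed the averaged test with opposite directions at the stages and are not shared, namely Myo3b, Cd44, Sec24d, Lhx8 and Msx1.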

How the data were processed

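The authors deposited 1 table of raw counts per gene and library, with no normalization. Per the submitters' processing notes, cutadapt, STAR, featureCounts, MultiQC and build mm10 were used, and the annotation and strand setting are not given in the sources used here. Each of the 12 columns was matched to its sample by name. Gene positions and overlaps are from GENCODE M21 and promoter sequences from RefSeq.

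Counts were tested in R 4.3.3 with edgeR 4.0.16 (TMM scaling, filterByExpr, robust quasi-likelihood F test, two-sided) with 1 mean fitted per group, and the genotype differences of both stages were averaged. P-values were adjusted over 14810 genes by Benjamini-Hochberg, and standard errors were derived from the log2 fold change and its F statistic. CPM are relative to TMM-scaled library sizes. Exact permutations kept libraries within their stage (400 arrangements). The biological coefficient of variation was 8.77%. The procedure was checked on simulated counts.

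The genes named are Eftud2, Mdm2 and Trp53, and, among shared genes averaging at least 10 counts without overlap within either stage, the 12 largest rises and falls, those called at each stage, the 5 largest called at neither, and the 5 with the smallest stage difference, plus called members of 32 lists. The members and lists were chosen with earlier results of these data known, and 5 lists and the genes named from them only (Fgf18, Tagln and Rasip1 among them), Arhgap27, H19 and the sterol genes were picked with their values in view. Some genes the rule picks are left out here. Alternatives used RLE, upper-quartile or total-count scaling, DESeq2 1.42.0, limma-voom 3.58.1, other filters and models, Xist as a covariate, and each library left out.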

Additional observations from a re-analysis of the deposited data

Results flagged for a closer look

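For 9 genes called in the averaged effect, the genotype effect itself differed between E9.0 and E9.5 by edgeR's interaction test, given here as the log2 change at E9.5 minus that at E9.0. Of the shared falls, Dlx1 differed by −2.72 (adjusted p = 0.00349) and Trh, the thyrotropin-releasing hormone precursor, by −2.91 (adjusted p = 0.0213). Of the shared rises, Phlda3 differed by −1.93, Ccng1 by −0.97, Slc19a2 by −1.32 (adjusted p = 0.0213 each) and Svop by −3.11 (adjusted p = 0.0377), all with the larger rise at E9.0. The other 3 had opposite directions at the stages and are not shared. Lhx8, an arch homeobox gene, was at 0.79 at E9.0 and −3.09 at E9.5, a difference of −3.88. Msx1 was at 0.11 and −0.56, a difference of −0.67, and Cd44, the hyaluronan receptor, at −0.10 and 0.76, a difference of 0.86.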

How the results depend on the processing

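Over the 12 fits that left out 1 library, 246 to 411 genes were called in the averaged effect (152 to 253 shared rises, 84 to 165 shared falls), 38 to 109 at E9.0, 133 to 301 at E9.5 and 11 to 25 at both stages, with 1 to 10 shared genes differing between stages. With total counts as the only scaling, 53 shared falls, 123 genes at E9.5, 8 at both stages and 9 stage differences were called. DESeq2 called 251 shared falls, 203 genes at E9.0, 449 at E9.5, 54 at both and 27 stage differences, and limma-voom 2 stage differences. GC and length offsets gave 683 calls, 318 shared falls, 173 at E9.0, 41 at both and 11 stage differences. Genotype alone, with stage not held, called 7 genes. The test against a 1.5-fold change called 19 (10 and 9 shared, 17 at E9.0, 13 at E9.5, 1 at both, 1 stage difference), and an adjusted p under 0.01 called 159 (97 and 62 shared, 34, 81, 8 and 1). For the scalings, tools and offsets the cause was not tested, while fewer libraries, a bound on the fold and a stricter threshold change the test itself. With the replicate number as a block 383 genes were called, 21 at both stages, and same-numbered libraries correlated at 0.03 to 0.11, so the numbers were not taken as pairs. With Xist as a covariate 355 of the 433 shared genes remained. Named genes gave the same call in 3548 of their alternatives and a weaker one in 899, and no averaged direction reversed, while the E9.5 value of Mdm2 went from 0.03 to −0.01 without heterozygous E9.5 replicate 3. At genes with few counts the depth limits the size of the fold.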

Other observations

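In a list of 34 genes of sterol and fatty acid synthesis, written after results had been seen, 7 fell, 27 were not called and 0 rose by edgeR (21 falls and 0 rises at an unadjusted p under 0.05, 9 and 0 by DESeq2). Averaged over the stages 33 values were below 0, with a median of −0.16, and 1 gene was called at E9.0 and 1 at E9.5. Scd1, a fatty acid desaturase, was at 98.4, 99.9 and 84.8 CPM against 82.5, 62.7 and 57.6 CPM at E9.0 and at 76.2, 83.7 and 75.9 against 56.2, 58.4 and 60.3 CPM at E9.5, with no overlap at either stage (−0.46 ± 0.07, edgeR adjusted p = 0.00298). Fads1, another desaturase, changed by −0.24 ± 0.05 with all 6 homozygous libraries below all 6 heterozygous ones. Scd1 and Fads1 kept their calls in all 12 fits with a library left out, and Srebf1, Tm7sf2, Acat2, Scd2 and Slc25a1 in 1 to 4 of them. The count of falls ran from 2, in 5 of those fits, to 11.

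Of 15 genes of the retinoic acid pathway 2 rose and 13 were not called. Both rises, Cyp26a1 and Cyp26c1, encode enzymes that break down retinoic acid. Cyp26c1 was at 44.8, 38.8 and 43.6 CPM against 53.7, 51.4 and 60.1 CPM at E9.0, and at 20.3, 23.6 and 19.9 against 40.6, 36.9 and 37.8 CPM at E9.5, with no overlap at either stage (0.61 ± 0.06, edgeR adjusted p = 2.0e-05). Cyp26a1 changed by 0.41 ± 0.10 and kept its call in 5 of the 12 fits with a library left out. The imprinted noncoding RNA H19 changed by 0.35 ± 0.06 (edgeR adjusted p = 0.00782), with 0.34 at E9.0 and 0.36 at E9.5, and kept its call in all 12 of those fits. Of 22 semaphorin, ephrin and other guidance genes 3 rose, of which the semaphorin co-receptor Nrp2 (0.43 ± 0.07) kept its call in all 12, Efna1 in 6 and Epha4 in 2, and the count was 1 in 5 of the fits.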
